A study of Mus musculus with 15 samples.

Results

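The genes described here are 50 splicing regulators of the mouse: SR proteins, the related Tra2 proteins, hnRNPs, polypyrimidine tract binding (PTB) proteins, other sequence-specific regulators, and the kinases that phosphorylate SR proteins. They were chosen by gene name and family, with earlier results of these data known. All 50 were found among the 55416 genes of the count table. They were measured in 15 RNA samples of SVI cells, a conditionally immortalised mouse podocyte line that was differentiated and grown on flexible silicone membranes. The unstretched cells of experiment 1 (n = 3) were compared with low-stretch cells of the same experiment (n = 6, labelled with a membrane deflection of 5 to 6 mm), and the unstretched cells of experiment 2 (n = 3) with high-stretch cells (n = 3, labelled 7 to 8 mm). The design text gives 6 mm and 8 mm as the largest deflections. All groups are the same cell line, with no genetic change named in the labels. Each amplitude was used in 1 experiment only, so amplitude and experiment cannot be told apart. The labels do not say whether the samples of a group came from separate cultures, so the p-values measure the spread between these samples, which may be technical. The duration of the stretch is not given in the sources used here.

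SR proteins bind exonic enhancers through RNA recognition motifs and recruit the spliceosome through arginine and serine rich domains, whereas many hnRNPs bind silencers and oppose exon inclusion. CLK and SRPK kinases phosphorylate the SR domains and so set where these proteins reside and how active they are. Many of these genes control their own output: when the protein is abundant, its own transcript is spliced to include a poison exon, to skip a coding exon or to retain an intron. The resulting RNA carries a premature stop codon and is degraded by nonsense-mediated decay (NMD), or stays in the nucleus. The gene count and the share of unproductive transcripts are therefore both reported. They are not fully separate, since the count can also include reads of unproductive transcripts. The share holds only RNA that was not degraded, so how often the unproductive forms were made was not measured.

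The switches below show how the annotation encodes this control, and they are shown because the shares of these transcripts are reported further on. Other retained-intron and NMD transcripts also enter the unproductive share of each gene. The sequences are those of the GENCODE M21 mouse transcripts, written 5′ to 3′ in lower case, with the premature stop codon in capitals. The poison exon of each SR or Tra2 transcript is printed from its first base to the stop. Srsf3-201 adds an exon of 456 bases and reaches a stop after 34 of them, which shortens the coding sequence from 495 to 375 bases. Srsf6-201 adds an exon of 268 bases and meets its stop after 152. Srsf7-203 adds 460 bases and stops after 28. In Tra2a-202 the added exon is 306 bases long and the stop comes after 144, and in Tra2b-206 it is 276 bases long and the stop comes after 81.
Srsf3-201: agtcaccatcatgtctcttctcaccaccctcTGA
Srsf6-201: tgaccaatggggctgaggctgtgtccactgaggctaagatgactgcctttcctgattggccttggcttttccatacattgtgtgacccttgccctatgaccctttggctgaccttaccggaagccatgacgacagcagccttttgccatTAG
Srsf7-203: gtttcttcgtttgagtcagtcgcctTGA
Tra2a-202: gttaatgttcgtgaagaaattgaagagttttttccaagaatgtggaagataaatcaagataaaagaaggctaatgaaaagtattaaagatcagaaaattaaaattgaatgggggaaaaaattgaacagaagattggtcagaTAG
Tra2b-206: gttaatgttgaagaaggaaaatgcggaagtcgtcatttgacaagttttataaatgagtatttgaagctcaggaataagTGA

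The PTB genes use the opposite switch. Ptbp1-201 and Ptbp2-208 skip an exon of 34 bases that the productive transcripts hold, and the frame then reads into a stop within 27 bases of the next exon, with 3 exon junctions still to come. Skipping shortens the coding sequence from 1470 to 1062 bases in Ptbp1 and from 1599 to 1071 bases in Ptbp2. PTB proteins promote this skipping in their own and in each other's transcripts. The skipped exon and the reading frame after the skip are printed for both genes. The last line is a coding exon of 78 bases that Ptbp1-216 holds and Ptbp1-202 lacks, and whose transcript is described below. These 2 transcripts also differ elsewhere in their coding sequence, of 1668 and 1470 bases.
Ptbp1 skipped exon: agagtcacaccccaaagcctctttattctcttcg
Ptbp1-201 after the skip: gcgtctacggtgatgtgcagcgggTGA
Ptbp2 skipped exon: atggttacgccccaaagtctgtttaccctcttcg
Ptbp2-208 after the skip: gtgtttatggagatgtgcagcgcgTGA
Ptbp1-216 added coding exon: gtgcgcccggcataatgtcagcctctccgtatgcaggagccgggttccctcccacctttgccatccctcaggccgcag

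Total gene counts per sample, in units of 10⁶ counts, ran from 172.2 to 396.7. Of 12 podocyte markers, 7 had a median of at least 1 CPM (counts per 10⁶ counts of the library, after TMM scaling), led by Actn4 and Synpo, whereas Ptpro was near 0 and Tcf21 had counts in only 2 of 15 samples. The podocyte list summed to 1190 to 1330 CPM in unstretched and 1310 to 1580 CPM in low-stretch samples of experiment 1, and to 1690 to 2580 against 2240 to 2840 CPM in experiment 2. The endothelial, distal tubule and epithelial marker lists had no gene with a median of at least 1 CPM, and the immune list had 1 of 4. The proximal tubule list had 2 of 4, led by Lrp2 with a median of 623 CPM, and Lrp2 fell under low stretch by 0.65 on the log2 scale (adjusted p = 0.0227 by edgeR). Its summed level was 922 to 1080 CPM in unstretched and 486 to 760 CPM in low-stretch samples of experiment 1, and 310 to 685 against 246 to 438 CPM in experiment 2, with Slc34a1 at 0 in 9 of 15 samples. The mesangial list also had 2 of 4, with Itga8 near 0, and its sum, mostly Pdgfrb, was 87 to 104 against 57.2 to 79.2 CPM and 126 to 162 against 104 to 125 CPM. The part of these markers in the results below was not tested. In bulk RNA, fewer cells of a type and less RNA per cell cannot be told apart. Replicate 3 of the unstretched group of experiment 2 stood apart within its group: mitochondrial genes took 2.6% of its counts against 1.56% and 1.15%, and the 50 regulators took 0.639% against 0.452% and 0.382%. The values of the results on high stretch that moved most without it are given beside them.

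Nearly all of the regulators were expressed. Their length-scaled levels are given as TPM, a transcript's share of all transcripts corrected for length. In unstretched cells of experiment 1 the highest was Hnrnpa2b1, which binds nascent RNA and directs exon choice and transport, at 1381 TPM. Hnrnpf, a binder of G tracts, followed at 771 TPM, then Hnrnpa1 at 737 TPM and Hnrnpk, which binds C-rich RNA, at 679 TPM. Hnrnpa1 and Hnrnpa3 have processed pseudogene copies in the genome, so reads could be split among them and their counts are uncertain. Among SR proteins Srsf5 led with 439 TPM and Srsf3, the smallest SR protein and an export adaptor, had 214 TPM. Ptbp1, the PTB protein of most tissues outside neurons, stood at 366 TPM and its neuronal paralogue Ptbp2 at 32.6 TPM. Rbfox2, which binds GCAUG, had 80.9 TPM and Mbnl1 61.9 TPM. At the low end, the epithelial regulators Esrp2 and Esrp1 had 0.479 and 0.00325 TPM, Srsf12 0.232 TPM and Khdrbs3 0.113 TPM. Esrp1 had 0 to 5 reads in every sample and was left out of the tests by the filter on low counts, and the other 49 were tested.

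**Figure D1:**
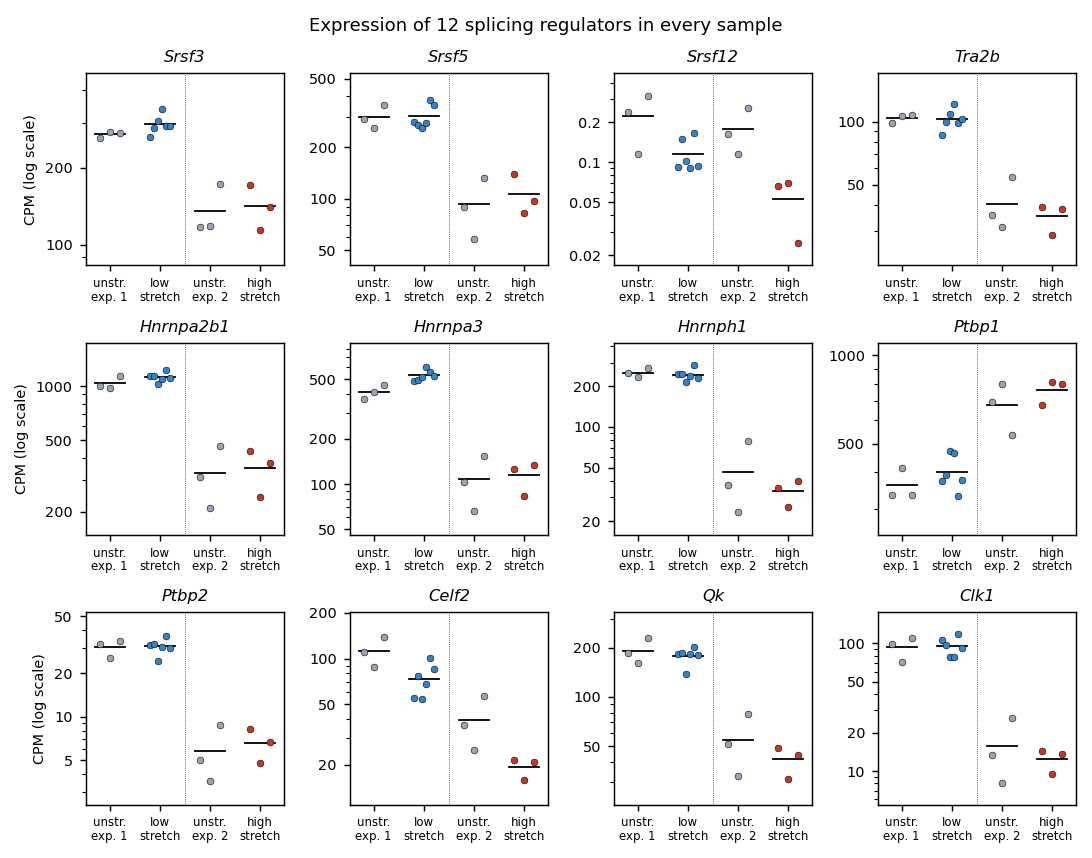
Level of 12 regulators in every sample as CPM after TMM scaling on a log axis, with 1 point per sample and a bar at the group mean. Grey points are unstretched samples, blue low stretch and red high stretch, and the dotted line parts the experiments. For most of these genes the stretched points lie among their own unstretched points, whereas all 3 high-stretch samples of Celf2 and Srsf12 lie below theirs.

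Low stretch left the counts of the regulators close to their unstretched level. In the edgeR quasi-likelihood fit, 0 of 49 had a Benjamini-Hochberg adjusted p under 0.05, against 5.45% of all 21672 genes tested. At an unadjusted p under 0.05 there were 8 of 49 (16.3%) against 23.6% of all genes. DESeq2 called 5 of 49 (10.2%) against 13.1%. The median log2 fold change was 0.0336, beside 0.00774 over all genes. A log2 fold change within 0.25 of 0 was found for 46 of 49 (93.9%), against 57.9% of all genes. For 45 of 49 (91.8%) the 95% confidence interval lay wholly within a 1.5-fold change in either direction, against 47% of all genes. The values were thus measured closely enough in this experiment to limit most members to small changes.

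Among the 11 SR proteins the log2 fold changes under low stretch ran from -0.97 to 0.10, and without Srsf12 all lay within 0.25 of 0. Srsf3 measured 270 ± 7.56 CPM unstretched (SD, n = 3) and 295 ± 25.6 CPM under low stretch (SD, n = 6), a log2 fold change of 0.10 (95% interval -0.08 to 0.28). Srsf5 had 301 ± 47.1 and 302 ± 49.3 CPM. Srsf1, the founding member of the family, had 222 ± 15.9 and 230 ± 22.3 CPM. Srsf2, which also acts in transcription elongation, had 120 ± 10.9 and 126 ± 14.9 CPM, and Srsf7, an export adaptor like Srsf3, had 142 ± 6.55 and 147 ± 11.6 CPM. Tra2a and Tra2b, which bind GAA-rich enhancers, had log2 fold changes of -0.14 (-0.36 to 0.08) and -0.04 (-0.24 to 0.17). For each of these genes the low-stretch and unstretched samples overlapped, and none passed the test.

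Srsf12, an SR-related protein that can repress splicing, was the lowest-expressed SR gene and had the largest fold change of all members. Its counts were 81, 39 and 101 in unstretched samples of experiment 1 and 29, 64, 31, 25, 48 and 30 under low stretch. As CPM these were 0.238, 0.117 and 0.318 against 0.0908 to 0.166. The groups overlapped through the unstretched replicate 2. The log2 fold change of -0.97 (-1.66 to -0.28) had an adjusted p of 0.094 by edgeR and 0.0424 by DESeq2.

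Of the 18 hnRNPs, 15 had a log2 fold change above 0 under low stretch, with a median of 0.115, and none passed the test. Over all genes 11055 of 21672 were above 0, with a median of 0.00774. The hnRNP values share the same libraries and are not independent. Hnrnpa3, a relative of Hnrnpa1, measured 370, 410 and 456 CPM unstretched and 485, 496, 515, 603, 558 and 529 CPM under low stretch. Every low-stretch sample lay above every unstretched one. The log2 fold change was 0.34 (0.13 to 0.54) with an adjusted p of 0.059 by edgeR and 0.00918 by DESeq2. Hnrnpf measured 577, 631 and 602 CPM against 655 to 783 CPM, also without overlap, with a log2 fold change of 0.21 (0.03 to 0.38) and an adjusted p of 0.144. Hnrnph2, an X-linked relative of Hnrnpf, had a log2 fold change of 0.19 (-0.01 to 0.39). Hnrnpd, which binds AU-rich RNA, had a log2 fold change of 0.16 (0.02 to 0.30), and Hnrnpk and Hnrnpu had 0.17 (0.01 to 0.32) and 0.15 (0.00 to 0.30). Hnrnpa2b1 had 0.08 (-0.10 to 0.26), Hnrnpdl 0.09 (-0.07 to 0.24), Hnrnph1 -0.08 (-0.28 to 0.12) and Hnrnpl, which binds CA repeats, 0.00 (-0.18 to 0.18). In all, 6 of 49 members (12.2%) had groups that did not overlap, against 15.9% of all genes. These were Hnrnpa3, Hnrnpd, Hnrnpf, Hnrnpk, Hnrnpu and the kinase Srpk1, and in each the low-stretch samples were higher.

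Samples of experiment 1 with consecutive sample codes, read here as runs of plate positions, deviated together. The mean correlation within a run was 0.453 (0.336 to 0.585). The mean between runs was -0.226. Both means come from the same libraries and are not independent. The second is largely set by the first, so it is no separate contrast. A planned fit with the run of positions as a block, each run holding 1 unstretched and 2 low-stretch samples, called 9 of 49 members (18.4%) against 28.2% of all genes. Higher were 6 of 49 (12.2%) against 13.7%, and lower 3 of 49 (6.12%) against 14.5%. The 6 that rose in that fit were all hnRNPs: Hnrnpa3 (adjusted p = 0.00292), Hnrnpf (0.0219), Hnrnph2 (0.029), Hnrnpk (0.0345), Hnrnpd (0.0392) and Hnrnpm (0.0408). The 3 that fell were Celf2 (0.000975), Srsf12 (0.0194) and Hnrnph3 (0.0307). Their log2 fold changes in that fit lay between 0.16 and 0.34 for the hnRNPs that rose, and were -0.65 for Celf2, -0.91 for Srsf12 and -0.19 for Hnrnph3. The run is read from sample codes and is no labelled batch.

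Celf2, a CELF family regulator that binds GU-rich RNA and opposes MBNL proteins at many exons, had the lowest fold changes under stretch among the well-expressed members. It measured 111, 88.4 and 139 CPM in unstretched samples of experiment 1 and 54.6, 76.7, 54.4, 68.3, 101 and 85.0 CPM under low stretch. Low-stretch replicate 5 lay within the unstretched range and the other 5 lay below it. The log2 fold change was -0.65 (-1.08 to -0.22) with an adjusted p of 0.0801 by edgeR and 0.0304 by DESeq2. Leaving out 1 sample at a time gave -0.48 (without unstretched replicate 3, adjusted p = 0.356) to -0.78, and the adjusted p was 0.0326 without low-stretch replicate 5.

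The remaining sequence-specific regulators and the kinases moved little under low stretch. Mbnl1 and Mbnl2, the muscleblind proteins that act in muscle and brain development, had log2 fold changes of -0.02 (-0.26 to 0.23) and -0.13 (-0.46 to 0.19). Rbfox2 had 0.03 (-0.11 to 0.18), Qk, a STAR-family regulator of exon choice and circular RNA, -0.13 (-0.40 to 0.15), and its relative Khdrbs1 (Sam68) 0.11 (-0.09 to 0.31). Ptbp1 and Ptbp2 had 0.12 (-0.16 to 0.40) and 0.00 (-0.26 to 0.26). Srpk1, a largely cytoplasmic SR kinase, measured 107, 109 and 107 CPM against 114 to 126 CPM without overlap, a log2 fold change of 0.14 (0.00 to 0.28) with an adjusted p of 0.201. Clk1 and Clk4, nuclear kinases of SR proteins, had 0.00 (-0.34 to 0.34) and 0.09 (-0.21 to 0.39).

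High stretch likewise gave 0 of 49 members past the edgeR test, against 3.47% of all 18524 genes. At an unadjusted p under 0.05 there were 2 of 49 (4.08%) against 14.6%, and DESeq2 called 2 of 49 against 7.57%. In both cases these were Celf2 and Srsf12, both lower. Groups did not overlap for 4 of 49 (8.16%) against 20.9% of all genes, namely Srsf12 and Celf2 lower and Srsf6 and Clk3 higher. The intervals were wider than in experiment 1: 12 of 49 (24.5%) lay wholly within a 1.5-fold change, against 45 in experiment 1. Over all genes 11.8% did so under high stretch. With a GC correction added after seeing the data, 33 of 49 (67.3%) lay within a 1.5-fold change, against 33.3% of all genes. The median log2 fold change was 0.0576, beside -0.0222 over all genes.

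**Figure D2:**
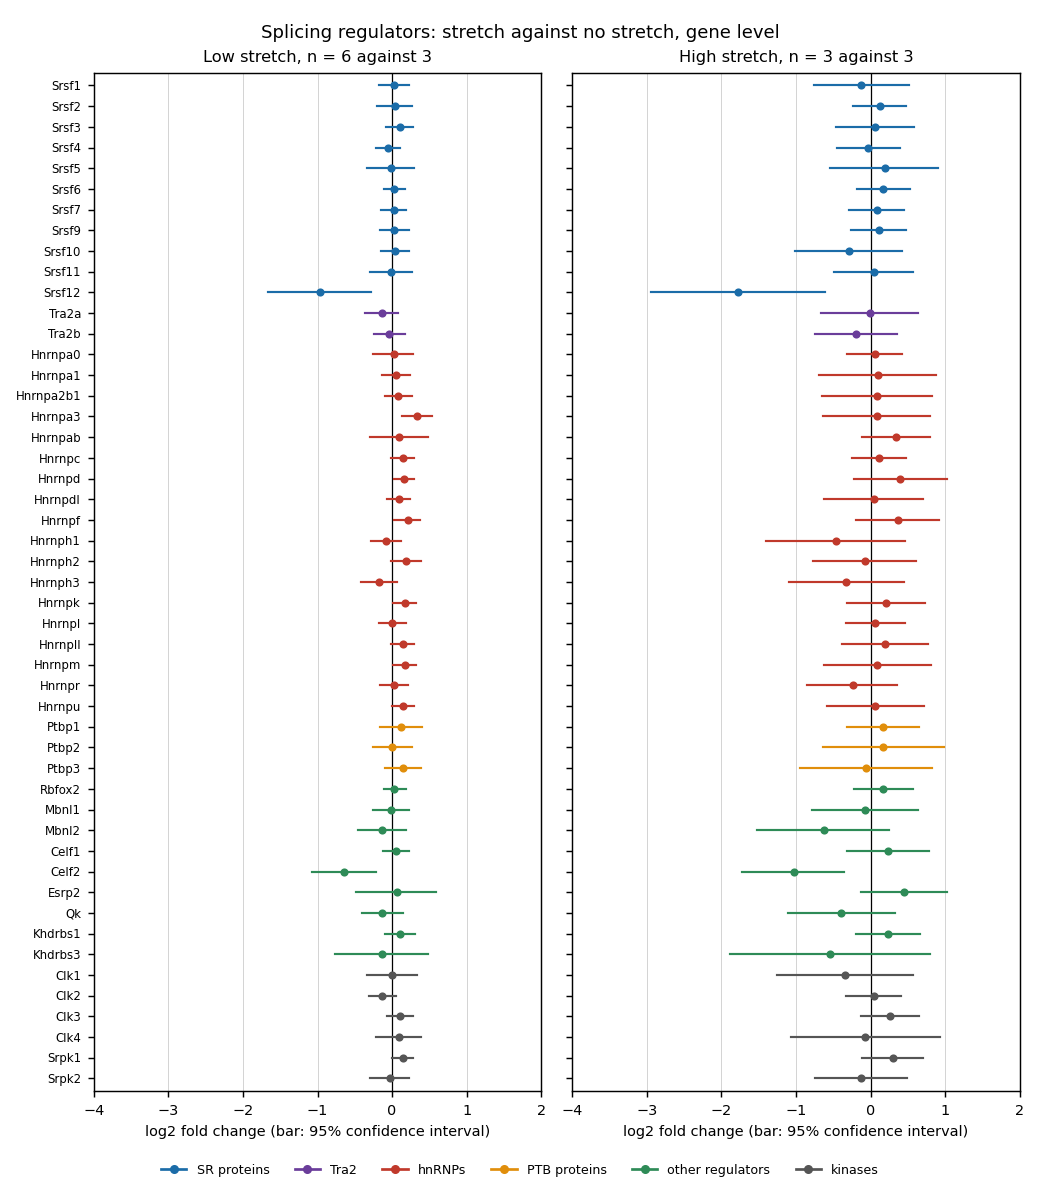
Log2 fold change of each tested regulator with its 95% confidence interval from edgeR, for low stretch (left, 6 against 3) and high stretch (right, 3 against 3), coloured by role. Most points lie near 0 with narrow bars on the left and wider bars on the right, and Srsf12 and Celf2 lie farthest to the left in both, at -0.97 and -0.65 and at -1.78 and -1.03.

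Celf2 measured 36.8, 25.1 and 56.9 CPM in unstretched samples of experiment 2 and 21.5, 15.8 and 20.9 CPM under high stretch. All 3 high-stretch samples lay below all 3 unstretched ones. The log2 fold change was -1.03 (-1.72 to -0.35) with an adjusted p of 0.125 by edgeR and 0.0183 by DESeq2. Without unstretched replicate 3 it was -0.67 with an adjusted p of 0.11, and without unstretched replicate 2 it was -1.25 with an adjusted p of 0.035. Blocking on the run of plate positions, which here equals the replicate number, called Celf2 and Srsf12 among 2 of 49 members (4.08%), against 8.35% of all genes, with an adjusted p of 0.00426 for Celf2. Srsf12 had 26, 16 and 69 counts unstretched and 16, 10 and 6 under high stretch, or 0.164, 0.115 and 0.257 against 0.0661, 0.0694 and 0.0247 CPM. Its log2 fold change was -1.78 (-2.95 to -0.61) with an adjusted p of 0.122, and -1.41 with an adjusted p of 0.148 without unstretched replicate 3. In the blocked fit the adjusted p of Srsf12 was 0.0154. At 6 to 69 counts per sample its counting error is large.

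The other large values under high stretch were Mbnl2 at -0.63 (-1.52 to 0.25), Khdrbs3, a Sam68 relative, at -0.55 (-1.89 to 0.79), and Hnrnph1, a G-tract binder, at -0.47 (-1.40 to 0.46). Without unstretched replicate 3 these were -0.13, -0.90 and 0.15, so the sign for Hnrnph1 rested on that library. Mbnl2 measured 21.4, 11.4 and 36.5 CPM unstretched and 17.2, 11.9 and 15.5 CPM under high stretch, and the groups overlapped. Hnrnpf had 339, 307 and 451 CPM against 584, 350 and 484 CPM, a log2 fold change of 0.37. Hnrnpa3 had 104, 66.4 and 155 CPM against 127, 83.7 and 134 CPM, a log2 fold change of 0.08 (adjusted p = 0.963 by edgeR). Srsf6 and Clk3, whose groups did not overlap, had log2 fold changes of 0.17 (-0.18 to 0.53) and 0.26 (-0.13 to 0.65). Esrp2 had 0.739 ± 0.0964 CPM unstretched and 1.01 ± 0.162 CPM under high stretch (SD, n = 3 each), with an adjusted p of 0.516 by edgeR.

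The remaining named members under high stretch had intervals that included 0. For SR and Tra2 genes the log2 fold changes were -0.13 for Srsf1, 0.12 for Srsf2, 0.06 for Srsf3, 0.19 for Srsf5, 0.08 for Srsf7, -0.01 for Tra2a and -0.20 for Tra2b. For hnRNP and PTB genes they were 0.09 for Hnrnpa2b1, 0.04 for Hnrnpdl, -0.08 for Hnrnph2, 0.06 for Hnrnpl, 0.17 for Ptbp1 and 0.17 for Ptbp2. For the others they were 0.17 for Rbfox2, -0.08 for Mbnl1, -0.39 for Qk, 0.23 for Khdrbs1, 0.30 for Srpk1, -0.34 for Clk1 and -0.07 for Clk4. Several of these signs rested on unstretched replicate 3. Without it Srsf1 was at 0.21, Tra2a at 0.35, Tra2b at 0.08, Hnrnph2 at 0.26, Mbnl1 at 0.31, Clk1 at 0.23 and Clk4 at 0.54, and Qk was at -0.02. Larger values than with it were those of Srsf5 at 0.53, Hnrnpa2b1 at 0.43, Hnrnpa3 at 0.43, Hnrnpf at 0.56 and Ptbp2 at 0.61. No member passed the test in that fit either.

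The high-stretch effect minus the low-stretch effect passed the test for 0 of 49 members and for 0 of 22015 genes (0%), with DESeq2 also at 0. At an unadjusted p under 0.05 there were 0 members and 2.48% of all genes. For Celf2 the difference was -0.40 on the log2 scale (-1.17 to 0.36) and for Srsf12 it was -0.84 (-2.10 to 0.41).

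Unproductive output was read from the transcript TPM. For each gene the TPM of its retained-intron and NMD transcripts was divided by that of its protein-coding transcripts, with a pseudocount of 0.1 TPM on each side, and the unproductive share is given below as a percent of both classes. Of the 50 regulators 41 have such a transcript in GENCODE M21, and Hnrnpf, Hnrnph1 and Hnrnph2 are among those that do not. Reads from unspliced RNA can also be assigned to retained-intron transcripts, and the 2 cannot be told apart in these values. Shares differed greatly between genes. In unstretched cells of experiment 1 they were 75.6%, 78.9% and 74.6% for Hnrnpu and 74.2%, 72.4% and 73.6% for Srsf6, but 0.851%, 0.772% and 0.991% for Srsf9.

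Under low stretch the ratio passed limma's test for 0 of 37 members, against 0.0156% of 6417 genes. At an unadjusted p under 0.05 there were 2 of 37 (5.41%) against 9.94%, both lower, and no overlap was found for 3 of 37 (8.11%) against 4.8%. Ratios below 0 on the log2 scale were seen in 26 of 37 members with a median of -0.0899, and in 4600 of 6417 genes with a median of -0.122. Under high stretch 0 of 35 members passed, against 0% of 5313 genes, with 0 members and 4.61% of genes at an unadjusted p under 0.05. No overlap was found for 3 of 35 (8.57%) against 9.77%. The difference between the stretch effects passed for 0 of 36 members, against 0.0161% of 6230 genes, and 0 members against 4.01% of genes had an unadjusted p under 0.05.

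**Figure D3:**
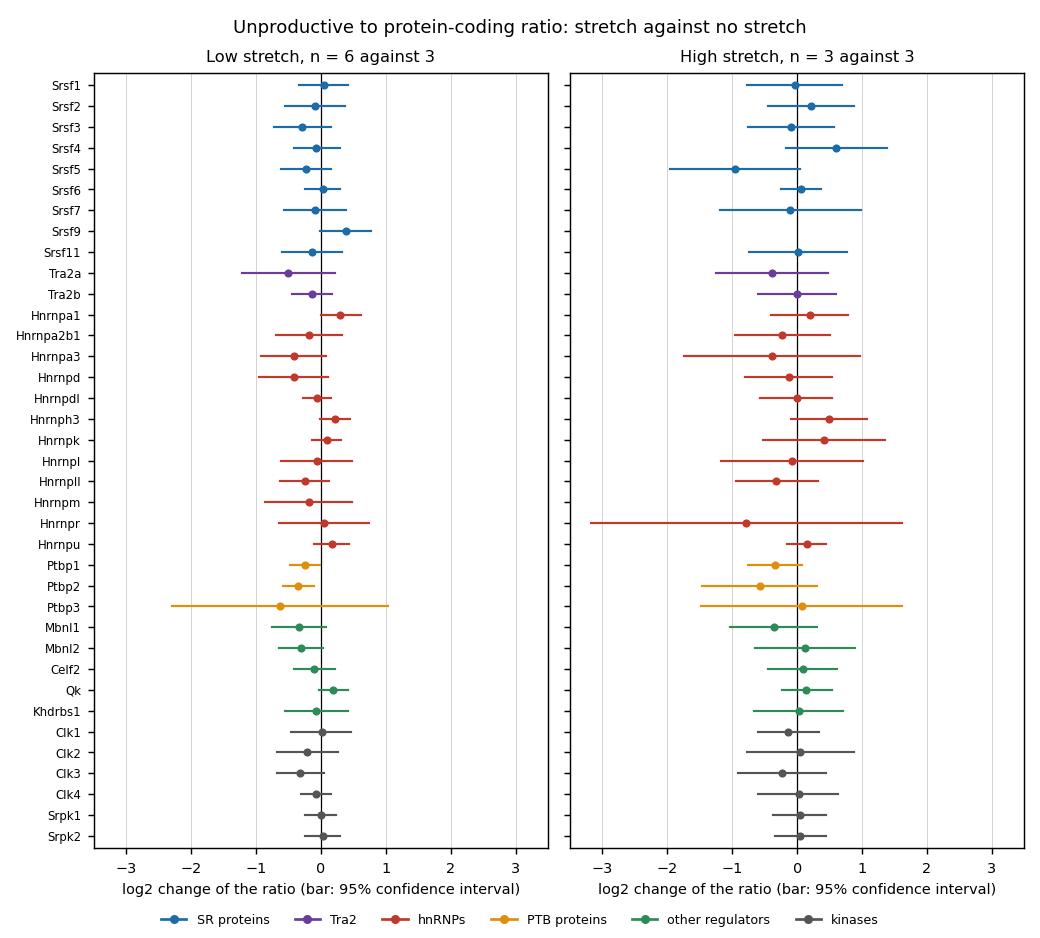
Log2 change of the unproductive to protein-coding TPM ratio of each tested regulator with its 95% confidence interval from limma, for low stretch (left) and high stretch (right), coloured by role. Values below 0 mean a smaller unproductive share under stretch. Every bar reaches 0 apart from those of Ptbp1 and Ptbp2 on the left, which end at -0.02 and -0.10.

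The 2 lowest p-values under low stretch belonged to the PTB genes. Ptbp2 had an unproductive share of 54.0%, 50.9% and 52.5% in unstretched samples and 45.4%, 48.4%, 44.5%, 43.1%, 50.02% and 47.2% under low stretch, so the groups did not overlap. The log2 change of the ratio was -0.35 (-0.59 to -0.10) with an unadjusted p of 0.00964 in limma's fit and an adjusted p of 0.434. Ptbp1 had 35.7%, 35.8% and 36.9% unstretched and 32.9%, 32.7%, 31.1%, 29.3%, 34.7% and 33.1% under low stretch, again without overlap. Its log2 change was -0.25 (-0.48 to -0.02) with an adjusted p of 0.5. Under high stretch Ptbp1 had 37.2%, 37.5% and 32.4% unstretched and 28.8%, 32.1% and 30.4% stretched, a log2 change of -0.34 (-0.76 to 0.08) with an adjusted p of 0.998, and of -0.45 without unstretched replicate 3. Ptbp1 was the only tested member with separate groups in both experiments, and the shift failed the correction in each. Over all genes 4.8% had separate groups under low and 9.77% under high stretch. The share of all genes with separate groups in both was not computed. A ratio change below 0 under low stretch was also seen in 4600 of 6417 genes. With retained-intron transcripts alone its log2 change was -0.52 under low and -0.73 under high stretch, and with NMD transcripts alone -0.13 and -0.26. For Ptbp2 under high stretch the groups overlapped, with 32.9%, 36.1% and 45.2% against 39.1%, 16.9% and 31.1%, at gene levels of 2.34 to 8.10 TPM.

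Among SR genes the largest difference was that of Srsf5 under high stretch. Its unproductive share was 8.92%, 8.03% and 15.5% unstretched and 7.08%, 3.37% and 7.28% under high stretch. The groups did not overlap, and the log2 change of -0.96 (-1.96 to 0.04) had an adjusted p of 0.998. Without unstretched replicate 3 it was -0.64. Under low stretch Srsf5 had 36.8%, 29.8% and 38.0% against 26.3% to 37.0%, with overlap. Srsf4 had a log2 change of 0.60 (-0.18 to 1.38; 0.94 without unstretched replicate 3) under high and -0.07 (-0.42 to 0.29) under low stretch. Srsf9 had 0.38 (-0.01 to 0.77) under low stretch at shares of 0.772% to 1.53%.

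**Figure D4:**
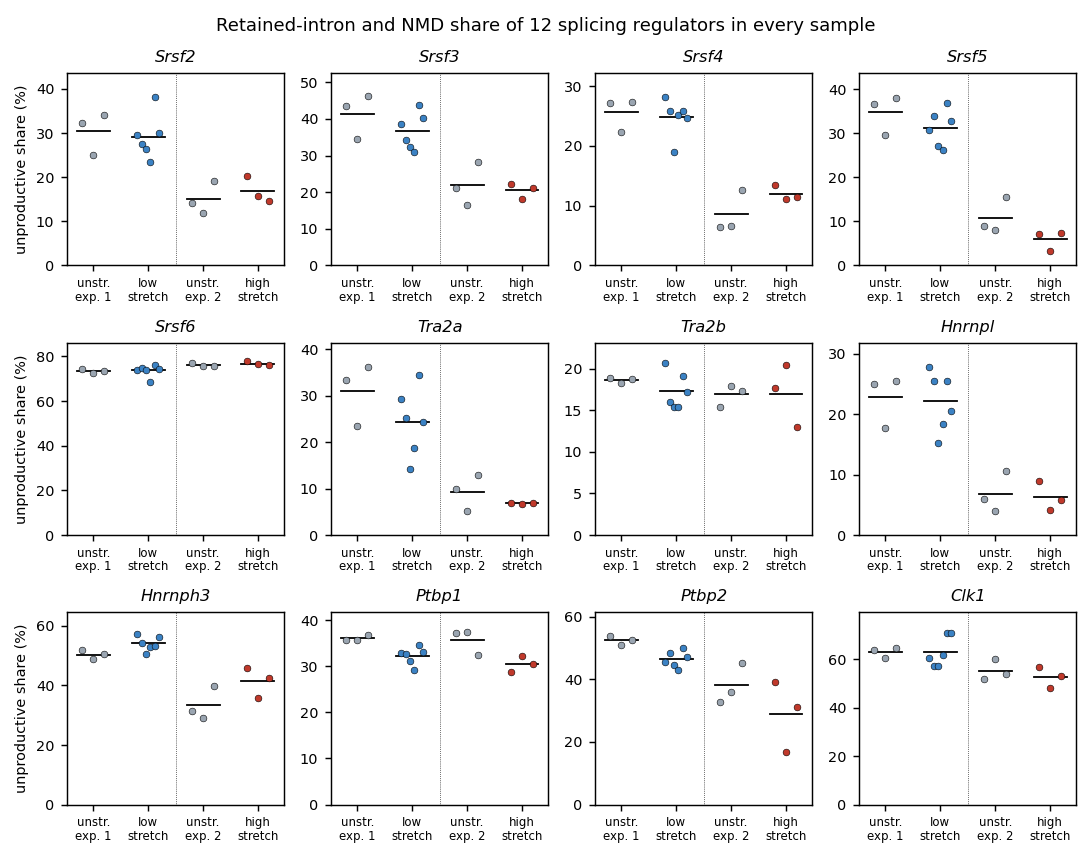
Percent of retained-intron and NMD TPM in the protein-coding, retained-intron and NMD TPM of 12 regulators in every sample, with 1 point per sample and a bar at the group mean. Grey points are unstretched samples, blue low stretch and red high stretch. The stretched points of Ptbp1 lie below their own unstretched points in both experiments, whereas most other genes differ more between the experiments than between stretched and unstretched samples.

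Among hnRNPs, Hnrnph3 had unproductive shares of 51.8%, 48.8% and 50.4% unstretched and 57.3%, 54.2%, 50.5%, 53.0%, 53.4% and 56.2% under low stretch, a log2 change of 0.22 (-0.02 to 0.45). Under high stretch its values were 31.5%, 28.9% and 39.9% against 46.0%, 35.9% and 42.6%, a log2 change of 0.49 (-0.09 to 1.07), and of 0.69 without unstretched replicate 3. The groups overlapped in both experiments. Hnrnpa1 had 16.6%, 15.5% and 18.3% against 17.0% to 22.4% under low stretch, a log2 change of 0.30 (0.00 to 0.61). Its NMD transcript Hnrnpa1-203 shares the stop codon of the coding transcript Hnrnpa1-202, after 963 coding bases, and has 2 exon junctions after that stop. Qk under low stretch had 46.0%, 46.7% and 41.6% against 46.7% to 49.8%, and Hnrnpu under high stretch 82.5%, 82.9% and 81.7% against 84.3%, 83.1% and 84.04%. Groups did not overlap in these 2 cases, and neither passed the test.

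The poison-exon and skipped-exon transcripts printed above kept similar shares of their genes' TPM with and without stretch. Srsf3-201 took 17.5% ± 1.84 unstretched (SD, n = 3) and 15.2% ± 1.82 under low stretch (SD, n = 6), and 12% ± 3.8 and 12.9% ± 1.11 in experiment 2 (SD, n = 3 each). Srsf6-201 took 47.3% ± 4.76 and 50.7% ± 3.55 in experiment 1, and 69.1% ± 3.20 and 72.2% ± 1.35 in experiment 2. It is the main transcript of its gene here, ahead of the coding Srsf6-203 at 26.6% ± 0.905 in unstretched cells of experiment 1. Srsf7-203 took 4.53% ± 0.571 and 4.78% ± 0.716, and 2.46% ± 1.27 and 3.02% ± 0.708. Tra2a-202 took 19.4% ± 4.53 and 15.2% ± 4.95, and 5.07% ± 2.50 and 4.24% ± 0.282, whereas Tra2b-206 took 13.2% ± 0.739 and 12.8% ± 1.40, and 15% ± 1.29 and 15.4% ± 3.37. Ptbp1-201 took 23.5% ± 0.337 and 22.7% ± 0.874, and 27.7% ± 2.26 and 25.0% ± 2.11. Ptbp2-208 took 5.19% ± 0.462 and 5.45% ± 1.86, and 6.65% ± 1.32 and 7.62% ± 2.83. For each of these 7 transcripts the stretched and unstretched samples overlapped in both experiments.

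Single transcripts were tested as the log2 ratio of a transcript to the rest of its gene. Under low stretch 0 of 199 member transcripts passed limma's test, against 0.0144% of 27720 transcripts, with 25 of 199 (12.6%) against 10% at an unadjusted p under 0.05. Under high stretch 0 of 170 passed, against 0% of 23408, with 11 of 170 (6.47%) against 8.04%. Ptbp1-216, which holds the 78-base exon printed above, took 47.6%, 47.1% and 45.2% of Ptbp1 in unstretched samples of experiment 1 and 51.5%, 50.6%, 52.0%, 53.8%, 49.5% and 49.1% under low stretch. In experiment 2 it took 45.6%, 46.3% and 48.8% unstretched and 53.1%, 52.0% and 54.1% under high stretch. The groups did not overlap in either experiment. The log2 changes were 0.26 (0.07 to 0.44) and 0.36 (0.08 to 0.64), with adjusted p-values of 0.37 and 0.547 in limma's fits. Without unstretched replicate 3 the second was 0.41.

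Hnrnpf-201, Hnrnpm-201, Hnrnpm-202 and the retained-intron transcript Ptbp2-211 also had groups that did not overlap in either experiment, with the same direction in both. With Ptbp1-216 these were 5 of the 156 member transcripts tested in both (3.21%), against 1.84% of 21615 transcripts. The entries are not independent, since Hnrnpm-201 and Hnrnpm-202 together hold most of the TPM of 1 gene. Ptbp1-216 and Ptbp2-211 also enter the unproductive ratios of their genes given above. Hnrnpf-201 took 55.1% ± 0.75 unstretched and 60.3% ± 2.97 under low stretch, and 52.5% ± 1.05 and 58.8% ± 2.33 in experiment 2 (SD, n = 3, 6, 3 and 3). Hnrnpm, a regulator of muscle and epithelial splicing, had Hnrnpm-202 at 24.1% ± 0.519 and 20.9% ± 0.745, and at 24.2% ± 0.505 and 19.9% ± 1.68. Hnrnpm-201 took 67% and 71.2%, and 70% and 74.8%, values that differ in the opposite direction. Ptbp2-211 took 16.6% ± 1.73 and 12.4% ± 1.94, and 7.98% ± 0.105 and 5.66% ± 0.692. Their adjusted p-values in limma's fits were 0.402 and 0.57 for Hnrnpf-201 and 0.336 and 0.592 for Hnrnpm-202, 0.372 and 0.592 for Hnrnpm-201, and 0.376 and 0.71 for Ptbp2-211. The lowest p-values under low stretch belonged to Hnrnpa3-203, which took 20.5% unstretched and 16.4% stretched (log2 change -0.39, adjusted p = 0.267 by limma), Celf1-204, with 17.4% and 21.1% (0.34, 0.272), Hnrnpa1-203, with 12.4% and 15.7% (0.39, 0.299), and Hnrnpk-224, with 23.6% and 20.5% (-0.26, 0.308). Under high stretch they belonged to Mbnl1-218, with 9.68% ± 2.7 unstretched and 17.1% ± 1.37 stretched (0.88, interval 0.36 to 1.40, adjusted p = 0.393 by limma). The retained-intron transcript Clk1-204 took 8.06% and 5.01% (-0.63, 0.57), and Hnrnpll-205 took 75.5% and 79.7% (0.34, 0.592). Transcript shares are model estimates from short reads, and similar transcripts of 1 gene can trade reads.

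The share of all TPM in retained-intron transcripts was 4.75% ± 0.271 unstretched and 4.34% ± 0.397 under low stretch (two-sided exact permutation p = 0.155, smallest possible 0.0119). Each of the 6 low-stretch samples lay below the unstretched sample of its own run of plate positions, and an exact permutation within the 3 runs, added after this was seen, gave a two-sided p of 0.0741, with 0.037 the smallest possible. In experiment 2 it was 3.08% ± 0.273 and 2.97% ± 0.198 (two-sided exact permutation p = 0.6, smallest possible 0.1). The NMD share was between 2.11% and 2.23% in all group means.

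The rest of the splicing machinery was read from lists fixed by name, also with earlier results of these data known. Of 53 other splicing regulators 44 were tested under low stretch, and 2 fell by edgeR's test while none rose. Over all 21672 genes in that fit 781 fell and 400 rose, together 5.45%. Rbm47, an RNA-binding protein that also serves RNA editing, went from 7.78 ± 1.22 to 4.18 ± 0.821 CPM (log2 fold change -0.92, adjusted p = 0.0123), and Rbm20, the titin splicing repressor, from 1.41 ± 0.163 to 0.818 ± 0.153 CPM (-0.81, adjusted p = 0.0226) (SD, n = 3 and 6). Of 50 core spliceosome genes 2 rose and none fell: Crnkl1, a catalytic-complex factor, by 0.34 (adjusted p = 0.0293 by edgeR) and Cdc5l, of the complex around Prpf19, by 0.24 (adjusted p = 0.0432). The median log2 fold change was 0.126 for the spliceosome list and 0.00584 for the other regulators. None of 17 NMD and exon junction complex genes and none of 17 further SR kinases and phosphatases passed. In the fit with the run of plate positions as a block, 16 of the 50 spliceosome genes rose and none fell, 5 of the 17 NMD genes rose, 5 of 17 kinases and phosphatases rose and 1 fell, and 5 of 44 other regulators rose and 6 fell, beside the 13.7% of all genes that rose and 14.5% that fell. Under high stretch none of the 43, 50, 17 and 17 genes tested in these lists passed by edgeR, against 3.47% of all genes. In the blocked fit 1 other regulator rose and 2 fell, and 1 kinase or phosphatase fell, where 8.35% of all genes passed.

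The regulators differed far more between the unstretched samples of the experiments than with stretch. This comparison was chosen after seeing the data, and any difference of culture, handling or sequencing between the experiments enters it. By edgeR, 38 of 49 members (77.6%) passed, against 62.5% of all 20707 genes, and 32 of 49 (65.3%) were lower in experiment 2, against 32.7%. Higher were 6 of 49 (12.2%), against 29.7%. The median log2 difference was -1.38, beside -0.0715 over all genes. The members took 1.07% of counts in unstretched samples of experiment 1 and 0.491% in those of experiment 2. The lowest were Clk1 at -2.59, Clk4 at -2.57, Hnrnph1 at -2.48 and Ptbp2 at -2.42. Clk1 measured 98.9, 71.9 and 109 CPM in experiment 1 and 13.3, 8.13 and 26.0 CPM in experiment 2. The 6 that were higher in experiment 2 were Khdrbs3 at 1.86, Ptbp1 at 0.90, Srsf9 at 0.67, Hnrnpl at 0.57, Hnrnpc at 0.49 and Clk3 at 0.49. Ptbp1 measured 334, 413 and 334 CPM against 692, 800 and 533 CPM, so Ptbp1 was higher where its paralogue Ptbp2 was lower.

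These differences went with base composition. Over the 49 members the log2 difference between experiments and the GC content of the transcript had a Spearman correlation of 0.669, beside 0.674 over 20503 genes, and all points share the same 6 libraries. For the stretch effects the same correlation over the members was -0.057 under low stretch and 0.414 under high stretch, beside 0.0158 and 0.0312 over all genes. After a lowess correction for GC content, also added after seeing the data, 27 of 49 members passed (55.1%) against 44.7% of all genes. Of the members 8 were higher (16.3%) against 24.1%, and 19 lower (38.8%) against 20.6%, with a median of -0.303 beside 0.0269 over all genes. Clk1 was then at -1.07, Clk4 at -1.44, Hnrnph1 at -1.76 and Ptbp2 at -1.23, whereas Srsf3 went from -1.01 to 0.76 and Ptbp1 from 0.90 to 0.30 (adjusted p = 0.0938 by edgeR). The correction turned the sign for 16 of 49 members. Of the 6 that were higher as counted, Clk3 was then lower (-0.36, adjusted p = 0.0443 by edgeR), Srsf9 was at -0.06 and Hnrnpl at -0.05, whereas Hnrnpc was at 1.85. What sets the relation to GC content was not tested.

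**Figure D5:**
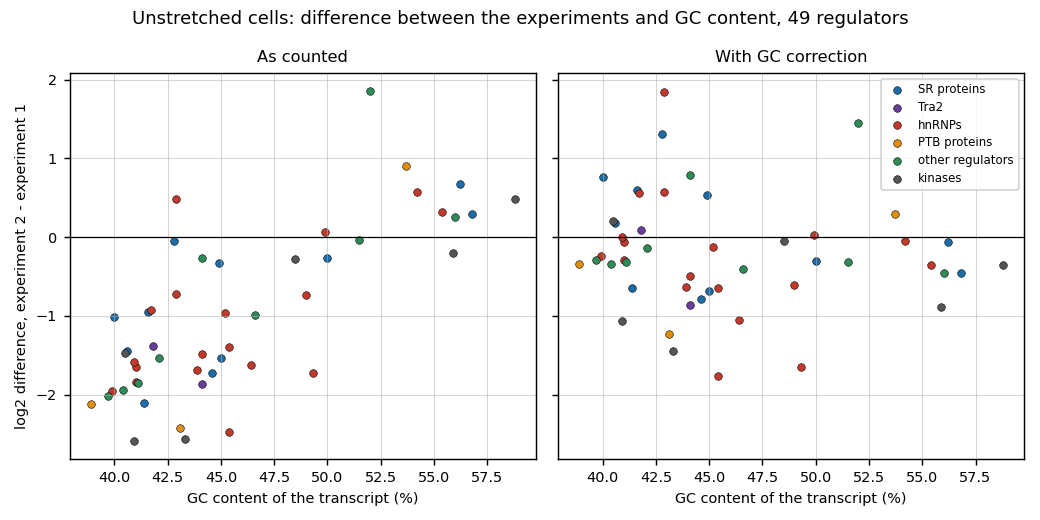
Log2 difference between the unstretched samples of experiment 2 and experiment 1 for 49 regulators against the GC content of the transcript in percent, as counted (left) and after the GC correction (right), with 1 point per gene coloured by role. On the left the values climb with GC content (Spearman 0.669) from a lowest value of -2.59, and on the right the lowest value is -1.76 and the highest 1.85.

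The unproductive ratio also differed between the unstretched groups. By limma it was lower in experiment 2 for 22 of 36 members and higher for 2, together 66.7% against 60% of 6198 genes. The lower ones were 61.1% of members against 53.6% of genes, and the higher ones 5.56% against 6.34%. Srsf5 went from 36.8%, 29.8% and 38.0% to 8.92%, 8.03% and 15.5%, a log2 change of -2.17 (-2.91 to -1.43, adjusted p = 0.0063). Tra2a went from 33.5%, 23.5% and 36.1% to 9.92%, 5.13% and 12.9%, a log2 change of -2.15. The 2 that were higher were Hnrnpdl at 0.63 and Hnrnpu at 0.52. Ptbp1 had a log2 change of -0.03 (-0.41 to 0.35) for both classes together. With its retained-intron transcripts alone it was lower in experiment 2, with a log2 change of -0.72 (adjusted p = 0.0243 by limma), and with NMD transcripts alone the change was 0.22 (adjusted p = 0.289).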

How the data were processed

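The authors deposited raw gene counts and transcript TPM for 15 samples of stranded poly(A) RNA. Per the submitters' processing notes, the tools were STAR 2.7.5c, featureCounts of Subread 2.0.0, DESeq2 1.38.3 and Salmon 1.9.0 with genome build mm39. The strand setting of the counting and whether a read pair counts once are not given in the sources used here. The deposited TPM sum to the same total in every sample and carry no depth. Symbols and transcript types came from GENCODE M21, which is on another build, so no coordinates are printed. It matched 52135 of 55416 genes and 137189 of 140789 transcripts, among them 525 transcripts of the 50 members.

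For counts, R 4.3.3 and edgeR 4.0.16 were used (filterByExpr, TMM, quasi-likelihood F test, Benjamini-Hochberg at 0.05 over all genes). Each stretched group was fitted with its own unstretched group, and the difference of effects was fitted over all 15 samples. TPM ratios were tested with limma 3.58.1 (eBayes with a trend, pseudocount of 0.1 TPM): class ratios for genes with a mean of at least 1 TPM and an unproductive share of 1 to 99%, and usage for transcripts with a mean share of 5 to 95%. No overlap means that all samples of a group lie on 1 side of all samples of the other. The script logic was tested on simulated data.

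The members and lists were chosen with earlier results of these data known. Named genes were the 5 largest changes per comparison, the 2 highest per role, a list given whatever the values, and the 5 lowest p-values per comparison for ratios and transcripts. Hnrnpd, Hnrnpk, Hnrnpu, Hnrnpm, Hnrnph3, Hnrnpc, Hnrnpdl, Srsf6, Srsf9 and Clk3, and the transcripts Hnrnpm-201 and Ptbp2-211, are also named in places where the rule does not name them, after their values were seen. Alternatives were DESeq2 1.42.0, RLE size factors, other filters and pseudocounts, single transcript classes, all samples in one fit, a block for the plate run or for the replicate number, and fits without 1 sample. The GC correction (lowess, span 0.3) and the comparison of unstretched groups were added after seeing the data. Sample numbers do not pair cultures in the labels.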

Additional observations from a re-analysis of the deposited data

Results flagged for a closer look

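In groups of 6 samples, 58 sets of member values were searched for a sample that stood far from the others. Chance passes this test in about 1 in 20 sets, and the sets listed here are about as many as that rate gives. The unproductive percent of Srpk1 was 44.7 in low-stretch replicate 4, where the other 5 samples had 49.7 to 52. The CPM of Qk was 138 in low-stretch replicate 3, where the others had 181 to 202. The unproductive percent of Srsf4 was 19 in low-stretch replicate 3, where the others had 24.7 to 28.1.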

How the results depend on the processing

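The counts of members called moved with the method in the stretch comparisons of genes. For low stretch, where edgeR called 0, DESeq2 called 5, the plate run block 9, the GC correction 2 (Celf2 and Hnrnph2) and the replicate block with GC correction 1 (Celf2), while the replicate block alone called 0. Over all genes edgeR called 1181, DESeq2 2837, the plate run block 6106, the GC correction 523 higher and 783 lower, the replicate block with GC correction 731 and the replicate block alone 490. For high stretch, where edgeR called 0, DESeq2, all 15 samples in one fit, and the replicate or plate run block each called 2 (Celf2 and Srsf12), no filter called 1 (Celf2), the GC correction 2 (Celf2 and Hnrnpd) and the replicate block with GC correction 3 (Celf2, Srsf12 and Hnrnpd). Over all genes edgeR called 643, DESeq2 1403, the joint fit 1488, the block 1546, no filter 1050, the GC correction 1644 and the block with GC correction 2493. The cause was not tested. Without 1 sample at a time, 0 to 1 members were called for low and for high stretch, 0 to 0 for the difference of effects, and 33 to 42 for the unstretched groups. The class ratios gave 0 to 0 for each stretch comparison and their difference, and 13 to 27 for the unstretched groups, lowest without unstretched replicate 1 of experiment 1. Transcript usage gave 0 to 0. With NMD transcripts alone, 9 class ratios differed between the unstretched groups against 24, and 624 against 3716 over all genes. Over all genes, those called under low stretch numbered 220 without unstretched replicate 3 to 1630, and under high stretch 14 without high-stretch replicate 3 to 1421 without unstretched replicate 3. The GC correction turned the sign between the unstretched groups for 16 of 49 members, 5 of which passed in both directions (Srsf3, Srsf7, Hnrnpd at 0.56, Hnrnpk at 0.58 and Clk3 at -0.36). Among the members of the naming rule that passed with or without it these were Srsf3 (0.76), Srsf7 (0.60), Khdrbs1 (0.79), Srsf1 (0.18), Tra2b (0.09) and Hnrnpl (-0.05). Whether replicate numbers pair the samples cannot be decided from 3 numbers per experiment. In experiment 1 deviations of same-numbered samples correlated from -0.452 to 0.379 (mean -0.0733), and 1 of 3 numbers correlated best with its own. In experiment 2 they correlated from -0.258 to 0.596 (mean 0.224), and 2 of 3 numbers correlated best with their own. There samples of unlike number had a mean of -0.129, which is largely set by the mean of 0.224. In that experiment the number equals the run of plate positions. In experiment 2, 3 samples a group limit what can be seen.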
